A study of Mus musculus with 9 samples.

Results

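The genes described here are 36 genes of the peroxisome, taken by name from 19938 genes that the arrays measured with a probeset (a group of probes for 1 transcript) of a single gene symbol. All 36 were on the array with 1 probeset each, and all 36 passed the filter on low expression, which left 14953 genes for testing. They form 3 classes: 19 enzymes of the matrix (the organelle's interior), 4 proteins of its membrane and 13 peroxins, the Pex proteins that build peroxisomes. RNA came from epithelial cells scraped off the opened colons of C57BL/6J mice, which are an inbred strain, here all male and aged 9 to 11 weeks. Every mouse first ate for 1 week a Westernized control diet in which fat gave 40% of the energy. The control groups stayed on that diet until day 0, 2, 4, 7 or 14, and the heme groups ate it with 0.2 µmol heme per g until day 2, 4, 7 or 14. Heme is the iron-containing pigment of red meat. RNA of the mice of a group was pooled, 4 mice to a pool and 3 in the control pool of day 2, and each pool was read on 1 array. This gave 5 control pools and 4 heme pools, with no second pool of any diet and day, so a pooled value carries no spread between animals.

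Peroxisomes shorten fatty acids that mitochondria handle poorly, such as very long and branched chains, by β-oxidation. Each round runs through an acyl-CoA oxidase, which makes hydrogen peroxide, then a bifunctional hydratase and dehydrogenase, then a thiolase. Shortened chains leave as carnitine esters. Proteins of the matrix are made in the cytosol and carried in by the peroxins, of which others insert membrane proteins or shape and divide the organelle. Many of the oxidation genes are known targets of the fatty acid receptor PPARα, which forms a pair with RXR on DNA.

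Under heme, 9 of 19 genes of matrix enzymes rose, and 1 of 13 peroxin genes did. In the diet comparison, of 4 heme with 5 control pools, 12 of the 36 genes rose and 0 fell at an adjusted p under 0.05 (limma, Benjamini-Hochberg over all genes tested), where 0.669% of all genes tested were called, 0.595% as higher and 0.0736% as lower. The others of the 12 were 2 of the 4 genes of membrane proteins. The median log2 fold change (heme minus control) was 0.17 over the matrix enzymes, 0.26 over the membrane proteins and 0.01 over the peroxins, beside 0.00 over all genes tested. These classes hold genes chosen for their function, and no test was made of one class against another. Since pools of different days stand in for replicates, the p-values do not cover the spread between animals. In such bulk RNA, fewer cells of a type and less RNA per cell cannot be told apart.

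**Figure D1:**
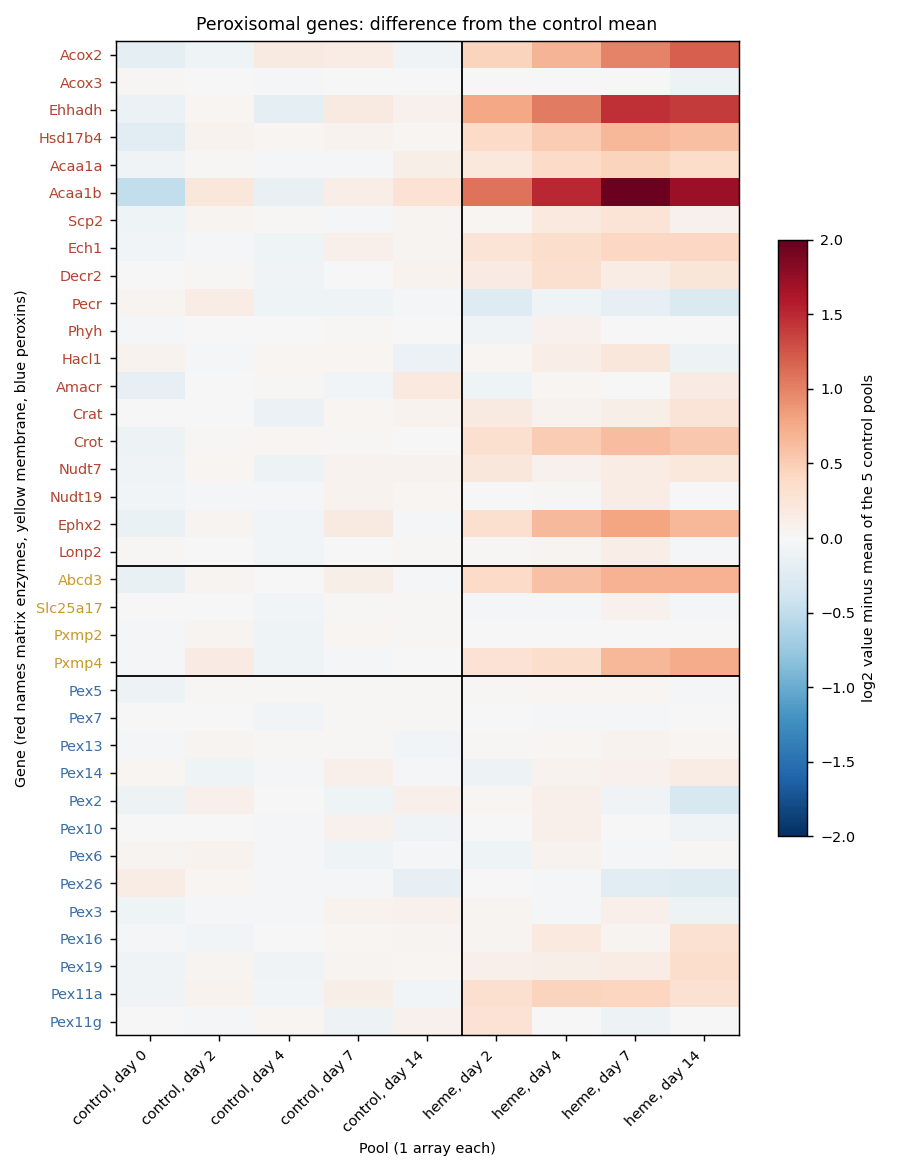
Each cell is the log2 value of 1 gene in 1 pool minus the mean of the 5 control pools, with genes in rows by class and pools in columns (control left, heme right of the vertical line). The red cells of the heme columns lie mostly in the rows of the matrix enzymes and of Abcd3 and Pxmp4, and the rows of the peroxins are mostly pale, with Pex11a the reddest.

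Among the 7 genes of the β-oxidation cycle itself, 5 rose: an oxidase, both bifunctional enzymes and both thiolases. Acox2, an acyl-CoA oxidase of branched chains and bile acid precursors, stood at 5.33, 5.44, 5.71, 5.68 and 5.46 log2 in the control pools of days 0, 2, 4, 7 and 14 and at 5.97, 6.21, 6.51 and 6.72 in the heme pools of days 2, 4, 7 and 14. The diets did not overlap, and the difference was 1.78-fold (log2 fold change 0.83, SE 0.14, adjusted p = 0.0316 with limma). In a fit that blocked by day, which also left out the day 0 control pool, the adjusted p of Acox2 was 0.0628. Acox3, an oxidase of branched-chain acyl-CoAs, stood between 8.08 and 8.14 in the control pools, at 8.12, 8.12 and 8.11 in the heme pools of days 2, 4 and 7, and at 8.01 in that of day 14. Its log2 difference was -0.03 (adjusted p = 0.664), and only the day 14 heme pool lay outside the control range.

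Ehhadh, the L-bifunctional enzyme, gave the second highest log2 difference of the 36 genes. Its control pools stood at 8.71, 8.86, 8.64, 9.00 and 8.91 by day, and its heme pools at 9.59, 9.86, 10.28 and 10.22. Every heme pool was above every control pool, by 2.24-fold on average (log2 fold change 1.16, SE 0.14, adjusted p = 0.00601). Hsd17b4, the D-bifunctional enzyme, which also handles bile acid precursors, stood at 9.48, 9.76, 9.73, 9.77 and 9.74 in the control pools and at 10.08, 10.20, 10.36 and 10.30 in the heme pools. It also did not overlap, with a smaller log2 fold change of 0.54 (SE 0.07, 1.46-fold, adjusted p = 0.01). The day 0 control pool lay below the other controls for this gene.

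The thiolases close the cycle, and mice have a pair of closely related genes for the peroxisomal 3-ketoacyl-CoA thiolase. Acaa1b was at 7.60, 8.31, 7.93, 8.22 and 8.37 in the control pools and at 9.17, 9.59, 10.04 and 9.79 in the heme pools. This was the highest fold change among the 36 genes, 2.95-fold (log2 fold change 1.56, SE 0.19, adjusted p = 0.00644), and also the widest spread among controls (SD 0.32, n = 5). Acaa1a was at 8.30, 8.39, 8.34, 8.35 and 8.49 in the control pools and at 8.58, 8.75, 8.82 and 8.74 in the heme pools. The diets again did not overlap, by a 1.27-fold difference (log2 fold change 0.35, SE 0.05, adjusted p = 0.0187, 0.0716 in the fit blocked by day). How far probes of one copy bind transcripts of the other was not tested. Scp2, whose longer product is a thiolase of branched chains, had a log2 difference of 0.15 (adjusted p = 0.227), with overlapping pools of 8.26 to 8.39 under control and 8.38 to 8.61 under heme.

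Enzymes of the same step had unlike fold changes. The log2 fold change of Acaa1b lay 1.21 above that of Acaa1a, that of Acox2 lay 0.86 above that of Acox3, and that of Ehhadh lay 0.62 above that of Hsd17b4. These pairs were chosen with the results known, so the gaps are a description with no test.

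Promoter windows are shown for Acaa1b, Ehhadh and Acox2, which had the highest log2 fold changes of the 36 genes. Acaa1a is shown as the partner of Acaa1b. Pex11a, the peroxin that rose, and its relative Pex11g, both described below, are added. Of the other partners, Hsd17b4 had no window and Acox3 is not shown. Matches were sought because PPARα with RXR is known to bind repeats of a short element. The windows are the 250 bases before the transcription start from RefSeq on GRCm38.p6, given 5′ to 3′ on the gene's strand. Capitals mark matches on either strand to that element, AGGTCA, or to CCAAT, whose reverse complement is ATTGG. They are Acaa1b (chr9:119157094-119157343, minus strand), Acaa1a (chr9:119341044-119341293, plus), Ehhadh (chr16:21787835-21788084, minus), 1 of 2 starts of Acox2 (chr14:8258840-8259089, minus), and the peroxins Pex11a (chr7:79743132-79743381, minus) and Pex11g (chr8:3467649-3467898, minus). The window of the other Acox2 start (chr14:8259020-8259269, minus), not shown, held no match to AGGTCA or CCAAT.
Acaa1b: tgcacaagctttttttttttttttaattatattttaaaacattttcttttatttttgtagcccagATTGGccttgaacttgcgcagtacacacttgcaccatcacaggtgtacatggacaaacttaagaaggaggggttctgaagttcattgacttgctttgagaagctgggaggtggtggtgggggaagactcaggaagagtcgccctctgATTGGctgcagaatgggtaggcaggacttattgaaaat
Acaa1a: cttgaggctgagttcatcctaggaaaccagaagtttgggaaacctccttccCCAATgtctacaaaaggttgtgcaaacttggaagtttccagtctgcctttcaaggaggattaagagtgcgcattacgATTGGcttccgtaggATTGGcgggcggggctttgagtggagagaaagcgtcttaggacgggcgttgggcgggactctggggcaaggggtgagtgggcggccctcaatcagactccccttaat
Ehhadh: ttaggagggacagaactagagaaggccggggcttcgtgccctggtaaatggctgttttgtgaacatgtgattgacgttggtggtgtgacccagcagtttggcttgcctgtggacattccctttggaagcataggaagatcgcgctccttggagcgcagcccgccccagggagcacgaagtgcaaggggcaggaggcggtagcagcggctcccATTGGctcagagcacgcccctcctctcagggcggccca
Acox2: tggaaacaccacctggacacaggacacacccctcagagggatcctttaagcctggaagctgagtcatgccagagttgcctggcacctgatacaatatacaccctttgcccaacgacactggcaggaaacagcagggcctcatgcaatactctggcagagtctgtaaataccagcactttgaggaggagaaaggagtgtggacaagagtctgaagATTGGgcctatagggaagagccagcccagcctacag
Pex11a: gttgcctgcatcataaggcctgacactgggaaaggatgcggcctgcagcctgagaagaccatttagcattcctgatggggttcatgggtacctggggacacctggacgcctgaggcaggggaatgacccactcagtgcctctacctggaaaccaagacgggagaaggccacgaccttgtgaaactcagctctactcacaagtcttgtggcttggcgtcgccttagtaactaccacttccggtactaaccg
Pex11g: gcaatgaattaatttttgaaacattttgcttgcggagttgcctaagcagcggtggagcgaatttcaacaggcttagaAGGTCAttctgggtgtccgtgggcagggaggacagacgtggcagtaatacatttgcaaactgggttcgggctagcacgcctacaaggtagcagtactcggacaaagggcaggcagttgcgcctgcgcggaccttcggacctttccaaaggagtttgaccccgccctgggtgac
The table of windows held 29 of the 36 genes, among them 10 of the 12 that rose. AGGTCA was in 2 of 29, Scp2 and Pex11g, in 0 of the 10 that rose and in 15.8% of all genes. CCAAT was in 12 of 29 and in 6 of the 10 that rose, among them both thiolases and Ehhadh, beside 37.5% of all genes. The windows of Acaa1b and Ehhadh hold no match to AGGTCA. Only exact matches within these 250 bases were sought, and binding by PPARα with RXR was not tested.

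Of 3 enzymes that act on double bonds of acyl chains, 2 rose, Ech1 and Decr2, which prepare unsaturated chains for the cycle. Ech1, a dienoyl-CoA isomerase, stood at 10.62, 10.66, 10.60, 10.79 and 10.74 in the control pools and at 10.95, 11.04, 11.10 and 11.10 in the heme pools. The separation was clear of the spread on both sides (log2 fold change 0.37, SE 0.05, 1.29-fold, adjusted p = 0.00837). Decr2, the peroxisomal dienoyl-CoA reductase, stood at 9.93, 9.96, 9.87, 9.95 and 10.01 in the control pools and at 10.11, 10.26, 10.09 and 10.18 in the heme pools. Its pools did not overlap either, but the difference was the smallest of the 12 that rose (log2 fold change 0.22, SE 0.04, 1.16-fold, adjusted p = 0.0466, 0.136 in the fit blocked by day). Pecr, an enoyl-CoA reductase that works in chain elongation, had the most negative log2 difference of the 36 genes, -0.20 (adjusted p = 0.194). Its pools were at 7.01, 7.11, 6.87, 6.87 and 6.94 under control and at 6.70, 6.87, 6.79 and 6.67 under heme, the day 4 heme pool meeting the lowest controls.

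Carnitine acyltransferases pass shortened chains out of the organelle. Crot, the octanoyltransferase, stood at 9.37, 9.50, 9.52, 9.50 and 9.49 in the control pools and at 9.80, 9.98, 10.09 and 10.01 in the heme pools. The rise was 1.41-fold (adjusted p = 0.00601), a log2 fold change of 0.49 with an SE of 0.06, with controls of days 2 to 14 lying within a narrow band. Crat, the acetyltransferase, ranged from 8.62 to 8.80 under control and from 8.80 to 8.99 under heme, which touch at 2 decimals, and did not pass (log2 fold change 0.16, adjusted p = 0.191).

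Of the enzymes that handle coenzyme A, epoxides and proteins, 1 of 4 rose. Ephx2, the soluble epoxide hydrolase, stood at 7.98, 8.17, 8.06, 8.29 and 8.08 in the control pools and at 8.43, 8.76, 8.90 and 8.78 in the heme pools. It rose 1.51-fold without overlap (log2 fold change 0.60, SE 0.09, adjusted p = 0.0187). Nudt7, a coenzyme A diphosphatase, ranged from 7.73 to 7.89 under control and from 7.91 to 8.05 under heme without overlap, and did not pass (log2 fold change 0.17, adjusted p = 0.175). Nudt19, of the same enzyme group, and Lonp2, the Lon protease of the matrix, had log2 differences of 0.04 and 0.05. Their pools overlapped, at 9.24 to 9.36 under control and 9.29 to 9.44 under heme for Nudt19 and at 9.03 to 9.11 and 9.04 to 9.21 for Lonp2. The 3 genes of α-oxidation and branched-chain handling did not pass: Phyh (phytanoyl-CoA hydroxylase), Hacl1 (hydroxyacyl-CoA lyase) and Amacr (the racemase that feeds branched chains to the cycle), at 0.00, 0.07 and 0.03. Control and heme pools ranged from 10.58 to 10.65 and 10.55 to 10.71 for Phyh, from 7.18 to 7.37 and 7.19 to 7.52 for Hacl1, and from 6.24 to 6.61 and 6.32 to 6.58 for Amacr, all overlapping. Over the 10 matrix enzymes that did not pass, the 95% intervals ran from -0.34 to 0.28 log2.

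At the membrane, 2 of 4 genes rose. Abcd3, the transporter that brings long and branched acyl-CoAs in, stood at 10.63, 10.83, 10.78, 10.89 and 10.76 in the control pools and at 11.16, 11.37, 11.47 and 11.47 in the heme pools (log2 fold change 0.59, SE 0.07, 1.51-fold, adjusted p = 0.00601). Pxmp4, a membrane protein, stood at 7.86, 8.07, 7.82, 7.86 and 7.92 in the control pools and at 8.20, 8.26, 8.57 and 8.65 in the heme pools (log2 fold change 0.51, SE 0.10, 1.43-fold, adjusted p = 0.0449, 0.104 in the fit blocked by day). Neither gene's pools overlapped between diets. Slc25a17, the carrier of coenzyme A and NAD, was at 9.18, 9.18, 9.12, 9.20 and 9.20 under control and at 9.16, 9.16, 9.26 and 9.14 under heme. Pxmp2, a channel-forming protein, was at 6.31, 6.40, 6.26, 6.38 and 6.37 under control and at 6.34, 6.35, 6.35 and 6.35 under heme. Both overlapped, with log2 differences of 0.00, and their 95% intervals ran from -0.09 to 0.10, so changes beyond 1.07-fold upward lie outside them. The heme pools of Pxmp2 held only 2 distinct values, so its spread is understated and its interval may be too narrow.

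**Figure D2:**
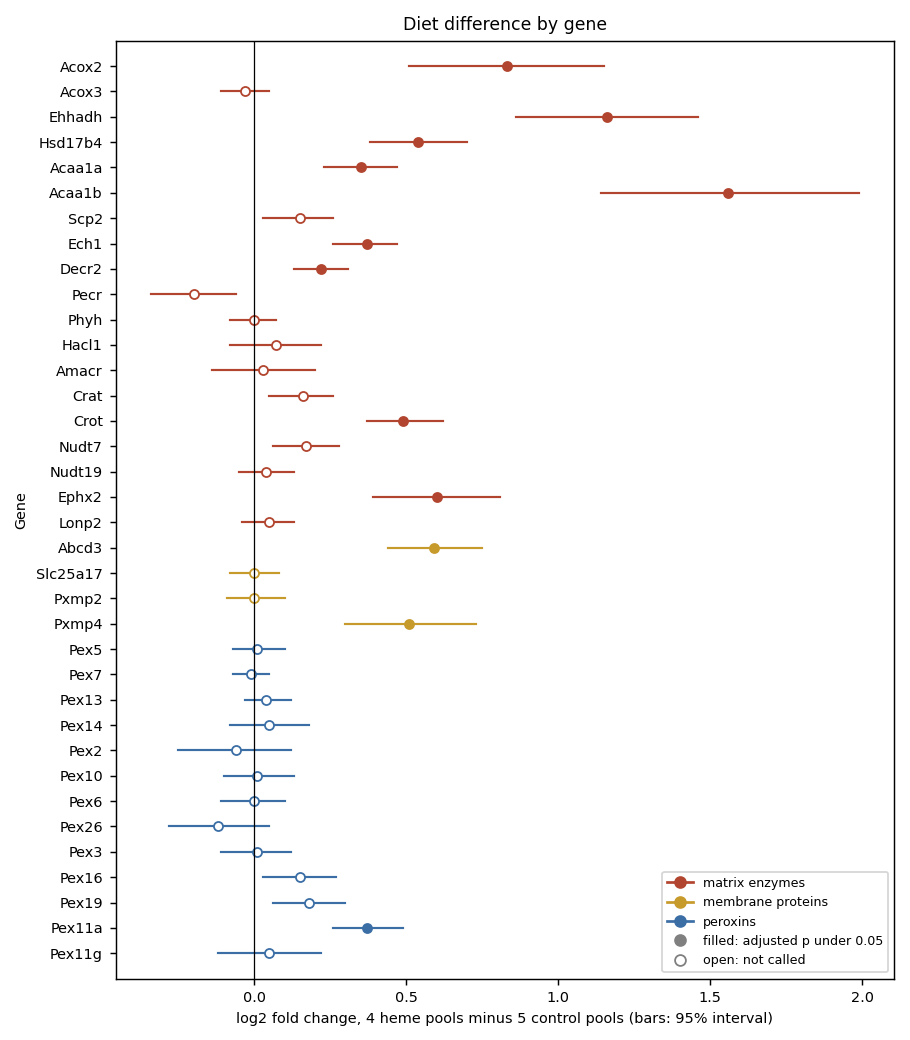
Points are log2 fold changes of the 36 genes, heme minus control, with bars for the 95% interval, coloured by class and filled where the adjusted p was under 0.05. The filled points run from 0.22 (Decr2) to 1.56 (Acaa1b), and 12 of the 13 blue peroxin points are open and lie between -0.12 and 0.18.

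Of the 13 peroxins, Pex11a alone passed the test. Pex11a, which elongates the membrane before division, stood at 8.13, 8.26, 8.14, 8.31 and 8.14 in the control pools and at 8.52, 8.64, 8.62 and 8.50 in the heme pools. It rose 1.30-fold without overlap (log2 fold change 0.37, SE 0.05, adjusted p = 0.0113). Without the day 4 control pool its adjusted p was 0.0527, and without the day 7 heme pool 0.0568. Its relative Pex11g was at 6.90, 6.88, 6.94, 6.80 and 6.99 under control and at 7.19, 6.90, 6.80 and 6.90 under heme, where only the day 2 heme pool lay above the controls (log2 fold change 0.05, adjusted p = 0.754).

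The peroxins of import did not pass. Pex5 and Pex7, the receptors for the carboxy-terminal and amino-terminal signals of matrix proteins, had log2 differences of 0.01 and -0.01, and the docking proteins Pex13 and Pex14 of 0.04 and 0.05. Pex5 read 7.54 in 4 of 5 control pools and between 7.48 and 7.55 in the heme pools. Control and heme pools ranged from 8.78 to 8.86 and 8.80 to 8.84 for Pex7, from 8.37 to 8.48 and 8.46 to 8.50 for Pex13, and from 7.38 to 7.57 and 7.37 to 7.61 for Pex14. The diets overlapped for each of these 4 genes. In the group that returns the receptors to the cytosol, the ligases Pex2 and Pex10 had -0.06 and 0.01, the ATPase Pex6 0.00 and its membrane anchor Pex26 -0.12. Pex10 ranged from 6.23 to 6.40 under control and 6.24 to 6.41 under heme, and Pex6 from 7.64 to 7.79 under both diets. Pex26 was at 6.12, 6.01, 5.95, 5.95 and 5.81 under control and at 5.96, 5.95, 5.76 and 5.73 under heme, lower than the same day's control on all 4 days, on day 4 by less than the second decimal, with overlapping diets (adjusted p = 0.42).

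Pex3, Pex16 and Pex19 place proteins into the peroxisomal membrane. Pex16 was at 8.02, 8.01, 8.08, 8.10 and 8.12 under control and at 8.12, 8.26, 8.12 and 8.37 under heme (log2 fold change 0.15, adjusted p = 0.234). Pex19, the chaperone of membrane proteins, was at 8.56, 8.69, 8.57, 8.69 and 8.67 under control and at 8.74, 8.76, 8.78 and 8.98 under heme (log2 fold change 0.18, adjusted p = 0.189). For both, every heme pool was above every control pool, that of Pex16 by less than the second decimal. Pex3 had a log2 difference of 0.01, with pools of 8.42 to 8.59 under control and 8.41 to 8.61 under heme. The 95% intervals of the 12 peroxins that did not pass ran from -0.28 to 0.30 log2, so rises of up to 1.23-fold are within them, and their smallest adjusted p was 0.189.

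In all, 16 of the 36 genes had every heme pool above every control pool, and 0 had every heme pool below, where 3.26% and 2.33% of all genes tested did so, 5.6% together. They were 11 matrix enzymes, 2 membrane proteins and 3 peroxins, and held all 12 genes that passed the test. On each of the 4 days that both diets share, 17 of the 36 genes were higher in the heme pool than in the control pool of that day, beside 10.9% of all genes tested. Leaving out 1 pool at a time left between 6 and 12 of the 36 genes called. Without the control pools of days 0, 2, 4, 7 and 14 the counts were 7, 7, 6, 8 and 8, while leaving out the heme pool of day 2, 4, 7 or 14 gave 12, 8, 6 and 7. Ehhadh, Hsd17b4, Acaa1b, Ech1, Crot and Abcd3 were called in all 9 of these fits. Acox2, Acaa1a, Decr2, Ephx2 and Pxmp4 were each lost in 7 or 8 of them, with log2 fold changes that kept their sign. For Acox2 the value without 1 pool ran from 0.71 to 0.96 and for Pxmp4 from 0.44 to 0.59.

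The course over days was read by setting the heme pool of each day against the same 5 control pools, so the 4 comparisons share their controls, and each test takes the lone heme pool to have the spread of the controls. Called genes of the set numbered 0 on day 2 and 0 on day 4, where 0% of all genes tested were called, 8 on day 7 and 16 on day 14. At an unadjusted p under 0.05 the same limma fits held 16, 14, 16 and 19 of the 36 genes on days 2, 4, 7 and 14. The shares of all genes tested were 9.26%, 7.03%, 16.8% and 40.9% on those days. Adjustment runs over all genes tested, so the called counts by day also depend on the other genes. For the 12 genes of the diet comparison the day 2 heme pool stood above every control pool, though none was called that day. The log2 differences included 0.77 for Ehhadh, 1.09 for Acaa1b and 0.38 for Abcd3. The diet comparison includes the day 2 heme pool, so the 12 genes were chosen partly on it and this separation is a description only.

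On day 7 the 8 genes that rose were 6 matrix enzymes and 2 membrane proteins, where 1.64% of all genes tested were called, 0.876% as higher and 0.762% as lower. They were Acox2, Ehhadh, both thiolases, Crot, Ephx2, Abcd3 and Pxmp4. Ehhadh was 1.46 log2 above the controls (adjusted p = 0.0144), Acaa1b 1.96 (adjusted p = 0.0383) and Crot 0.61 (adjusted p = 0.0164). This count rests on every control pool: it was 3 without that of day 0, 1 without that of day 2 and 0 without that of day 4, 7 or 14.

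On day 14, when 27.1% of all genes tested were called, 11.3% as higher and 15.8% as lower, 15 of the 36 genes rose and 1 fell. The 12 of the diet comparison all rose, with Crat at 0.26 (adjusted p = 0.0369), Pex16 at 0.30 (adjusted p = 0.0141) and Pex19 at 0.35 (adjusted p = 0.0164) beside them. Pex2, a ligase of the import machinery, was at 7.69, 7.90, 7.79, 7.71 and 7.89 in the control pools, at 7.84, 7.89 and 7.73 in the heme pools of days 2, 4 and 7 and at 7.47 in that of day 14. That last pool alone lay below the controls, a log2 difference of -0.32 (adjusted p = 0.0491). No gene of the set was called lower on day 14 with no filter, with no intensity trend, without both day 2 pools, or without any 1 control pool, fits that called 13 to 15 higher. Of the 13 peroxins, 4 were called on day 14, 30.8%, which is near the 27.1% of all genes tested, and of the 19 matrix enzymes 10 were called.

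**Figure D3:**
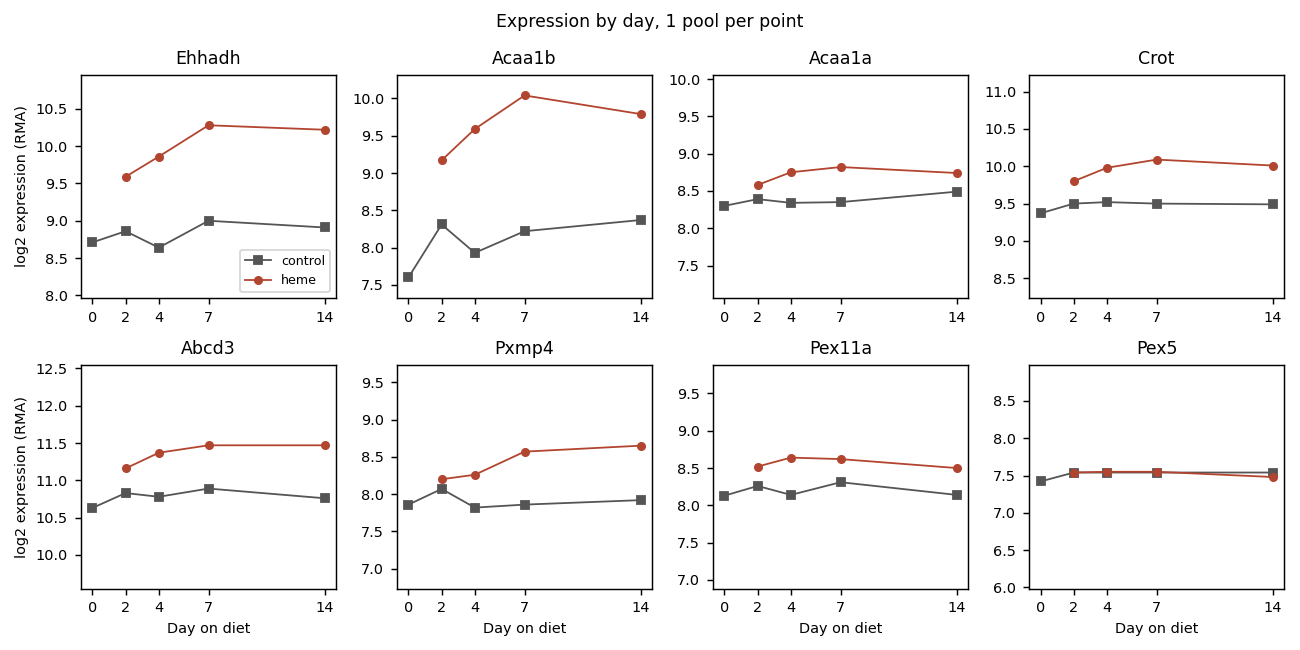
Log2 expression against day on diet for 8 of the genes, with 1 pool per point, control in grey squares and heme in red circles, and each panel spanning the same number of log2 units. Acaa1b and Ehhadh separate most, from day 2 on, Pex11a by less, and the lines of Pex5 coincide.

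Of the 12 genes that passed the diet comparison, 10 read higher on day 4 than on day 2 and higher again on day 7 in the heme pools. On day 14, 7 of the 12 read lower than on day 7, by between -0.06 (Ehhadh and Hsd17b4) and -0.25 (Acaa1b) log2. The control SDs of these 3 genes were 0.15, 0.12 and 0.32. Each step rests on 1 pool per day and was not counted over all genes tested, so no rise and fall is read from it. Acox2 and Pxmp4 kept climbing, to 6.72 and 8.65 on day 14. A test of the diet difference of days 7 and 14 against that of days 2 and 4, over 8 pools, called 0 of the 36 genes and 0% of all genes tested. Its unadjusted p was under 0.05 for 3 of the 36, beside 6.62% of all, and these were Acox2 (0.53 log2, adjusted p = 0.718), Hsd17b4 (0.19, adjusted p = 0.718) and Pxmp4 (0.44, adjusted p = 0.62) in limma. No gene of the set was shown to differ between early and late days. A slope on time over the control pools alone called 0 of the 36, with 5 at an unadjusted p under 0.05 beside 7.18% of all genes. Acaa1b was among the 5, from 7.60 on day 0 to 8.37 on day 14 (adjusted p = 0.681).

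**Figure D4:**
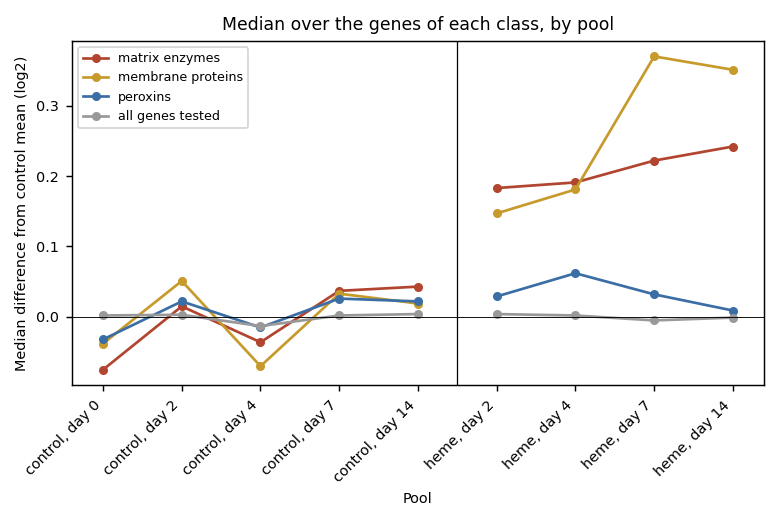
For each pool, the median over the genes of a class of the log2 value minus the mean of the 5 control pools, with lines for matrix enzymes, membrane proteins, peroxins and all genes tested. In the heme pools the matrix enzymes lie between 0.183 and 0.242 and the peroxins between 0.009 and 0.062, while all genes tested stay within 0.005 of 0.

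As a median over genes, the matrix enzymes lay 0.183, 0.191, 0.222 and 0.242 log2 above the control mean in the heme pools of days 2, 4, 7 and 14, and between -0.075 and 0.043 in the control pools. The membrane proteins lay at 0.147, 0.181, 0.37 and 0.351 on the same heme days. The peroxins lay at 0.029, 0.062, 0.032 and 0.009 there, against -0.032 to 0.026 in the control pools.

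Other genes of the peroxisome, from 2 lists of enzymes and of membrane proteins and peroxins, were read the same way. Of 52 listed, 45 were analysed here and 38 of these passed the filter and were tested. Of 25 other enzymes tested, 5 rose and 0 fell, with a median log2 fold change of 0.08. Catalase (Cat), which breaks down the hydrogen peroxide of the oxidases, rose from 9.99 ± 0.12 (SD, n = 5) to 10.77 ± 0.18 (SD, n = 4) log2 (log2 fold change 0.78, SE 0.09, adjusted p = 0.00601). Slc27a2, a very long-chain acyl-CoA synthetase, rose by 1.45 log2 (SE 0.17, adjusted p = 0.00601). The thioesterase Acot4 (0.67, adjusted p = 0.0187, 0.0588 in the fit blocked by day) and the dehydrogenases Hsdl2 (0.61, adjusted p = 0.0134) and Dhrs4 (0.32, adjusted p = 0.0187) completed the 5. Of 13 other membrane proteins and peroxins tested, 0 passed in the limma fit and 0 had an unadjusted p under 0.05, with a median of 0.04 between -0.14 and 0.13.

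Markers of the cells in the scrapings were set beside these values. The summed level of 6 colonocyte markers lay between 14.68 and 14.72 log2 in the control pools and between 14.73 and 14.81 in the heme pools, with Aqp8 called higher and Slc5a8 called lower under heme. Sums of 6 other epithelial and goblet markers were 14.94 to 15.04 and 14.93 to 15.00. The 7 pancreatic acinar markers measured summed to 11.67 and 12.27 in the control and heme pools of day 2 and to 8.34 to 8.53 in the other pools. Without both day 2 pools, 11 of the 12 genes remained called, Decr2 being the exception at an adjusted p of 0.0834. Smooth muscle markers ranged from 10.33 to 12.82 under control and from 10.35 to 12.18 under heme, and fibroblast markers from 10.28 to 11.53 and from 10.21 to 11.17. The 5 adipocyte markers measured, a list that holds the lipid droplet gene Cidec, summed to 8.13 to 8.78 under control and to 8.74 to 9.08 under heme. Cidec itself read 6.73 to 7.30 under control and 7.46 to 8.12 under heme, without overlap. Adipoq, the defining member, overlapped between diets (4.79 to 6.08 and 5.26 to 5.89), and of the 5 none was called and 1, Lep, lay below the filter and was not tested. The 5 hepatocyte markers measured summed to 9.02 to 9.22 under control and 9.00 to 9.16 under heme. Ttr was the highest of them, at 8.47 to 8.78 over all pools, and 2 of the 5 lay below the filter. Leukocyte markers summed to 8.99 to 9.35 under control and 8.86 to 9.07 under heme. The part of these cell types in the differences above was not tested.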

How the data were processed

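Gene expression was measured in 9 pools of mouse colon RNA on Affymetrix whole-transcript arrays. The deposited values are log2 expression per probeset, which the authors computed by RMA, per the submitters' processing notes (version: not given in the sources used here). The method normalizes the arrays together by quantiles and fits probes by median polish, which leaves tied values between arrays. Ties among controls occurred in 7 of the 36 genes, and some genes, such as Pxmp2, had ties among heme pools, so such spreads are understated. Array medians lay between 5.895 and 5.963. Precision is limited by the number of arrays.

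Of 35556 probesets, 21789 carried 1 gene symbol in the platform annotation, 1621 carried several and 12146 have no name here. Of those with 1 symbol, 21698 matched RefSeq by Entrez ID, with 0 symbols changed. Probesets with several symbols were left out, and for the 999 genes with more than 1 probeset the one with the highest mean was kept. Genes with a mean at or above the 25th percentile (4.716 log2) were tested. Tests used limma 3.58.1 in R 4.3.3 (lmFit, eBayes with an intensity trend), with Benjamini-Hochberg adjustment over all 14953 genes and a threshold of 0.05. Python 3.11.15, pandas 2.3.3 and matplotlib 3.10.9 were used for tables and figures. The fit was tested on simulated data.

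The members and lists were chosen with earlier results of these data known. Values per pool are given for the genes that passed and, in each class, the 3 highest and 2 lowest log2 fold changes. Pex11g was added as the relative of Pex11a, and its promoter shown, after its values were seen. Other genes are given by range. Control and heme pools of the same day share that day per the labels, not animals. Their deviations from the group means correlated with r = 0.658, 0, 0.3 and 0.204 on days 2, 4, 7 and 14. For control and heme pools of different days r ran from -0.475 to 0.396. A fit blocked by day is given where it changed a call. It left out the day 0 control pool, since that day has no heme pool. Alternatives were no filter, a filter at the 50th percentile, no trend, centred arrays, the mean of probesets, the block, leaving out each pool and, added after seeing the data, leaving out both day 2 pools.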

Additional observations from a re-analysis of the deposited data

Results flagged for a closer look

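Within each diet, the pool farthest from the others was compared with the spread of its group for each of the 36 genes, 72 groups in all. In 8 groups 1 pool was flagged, beside a nominal rate of about 1 in 20. That rate is for untied replicates of a single condition. These pools differ in day and some values are tied, as for Pex5 and Pxmp2, so the count is not read against it. In the control pools, that of day 0 was the lowest for Hsd17b4 (9.48 log2), Phyh (10.58), Crot (9.37) and Pex5 (7.42), and that of day 4 for Slc25a17 (9.12). In the heme pools, that of day 14 was the lowest for Acox3 (8.01) and the highest for Pex19 (8.98). That of day 2 was the lowest for Pxmp2 (6.34), where the other heme pools were tied at 6.35. For Hsd17b4 and Crot the low control pool adds to the control spread and also lowers the control mean. Without it their log2 fold changes were 0.488 and 0.467, beside 0.542 and 0.493 with it, and both genes were still called.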

How the results depend on the processing

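The 12 called genes were 10 with no filter and 10 with no intensity trend (each without Decr2 and Pxmp4), 11 with the filter at the 50th percentile, which Acox2 did not reach, 12 with centred arrays and 12 with the mean of probesets. The fit with the day as a replicate block, which also left out the day 0 control pool, called 8. It lost Acaa1a (adjusted p = 0.0716), Acox2 (0.0628), Decr2 (0.136) and Pxmp4 (0.104), and changed no other call of the 36 genes in the diet comparison. Leaving out that pool with no block called 7, losing the same genes and Ephx2, so the lost calls cannot be credited to the block. Leaving out 1 pool gave 6 to 12. The 8 genes of day 7 were 2 with no filter, 3 with no intensity trend, 1 without both day 2 pools and 0 to 3 with 1 control pool left out; a day has no value without its only heme pool. The median of the membrane proteins was 0.324 without both day 2 pools. The differences near 0 changed sign: Slc25a17 was 0.006 with centred arrays and 0.006 without both day 2 pools, and Pxmp2 was -0.004 with the replicate block. Without 1 pool, Slc25a17 ran from -0.028 to 0.013, Pxmp2 ran from -0.016 to 0.017 and Pex2 ran from -0.115 to 0.022. The cause of these shifts was not tested.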

Other observations

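Of the 38 other peroxisomal genes tested, 7 were called higher and 3 lower on day 14, a share near the 27.1% of all genes tested that were called that day, so nothing is read from the count. Of these 10, 5 had not passed the diet comparison. Hao2, a hydroxyacid oxidase of the matrix, read 10.70 to 10.75 log2 in the 5 control pools and 10.71, 10.70, 10.48 and 10.37 in the heme pools of days 2, 4, 7 and 14. It was lower on day 7 (log2 difference -0.25, adjusted p = 0.0328) and day 14 (-0.36, adjusted p = 0.00355, limma). Mpv17, an inner membrane protein of mitochondria in most accounts, read 7.61 to 7.76 under control and 7.27 in the heme pool of day 14 (-0.37, adjusted p = 0.0156). Xdh, xanthine dehydrogenase, read 8.66 to 8.93 under control and 8.66, 8.56, 8.69 and 8.42 under heme, lower on day 14 (-0.39, adjusted p = 0.0459). Idh1, which makes NADPH in the cytosol and peroxisome, was higher on day 7 (0.31, adjusted p = 0.0336) and day 14 (0.21, adjusted p = 0.0174). Fis1, a fission factor shared with mitochondria, passed on day 14 and not on days 2, 4 or 7 (0.26, adjusted p = 0.0388).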
